A study of Mus musculus with 12 samples.

Results

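Capn2, Zbtb18, Tatdn3 and Iars2 are 4 genes of chromosome 1 that were measured by 13 of the 45267 probes on Illumina WG-6 arrays of mouse embryonic heart. They were chosen because earlier results on these same arrays showed them higher in PatKO than in MatKO hearts and varying together from heart to heart. That contrast and that co-variation over the 12 hearts are therefore given as a description and carry no test. All 13 probes whose platform annotation names 1 of the 4 genes are reported: 5 for Capn2, 5 for Zbtb18, 1 for Tatdn3 and 2 for Iars2. The hearts came from embryos at E15.5 of a Ddc gene-trap line kept on a mixed strain background, with 1 array per heart. Ddc encodes dopa decarboxylase, and its isoform Ddc_exon1a is transcribed in heart from the allele inherited from the father. The groups were 3 WT hearts without the deletion, 4 MatKO hearts (Ddc-/+), in which the deleted allele came from the mother, 4 PatKO hearts (Ddc+/-), in which it came from the father, and 1 KO heart (Ddc-/-) with both alleles deleted. The trapped allele is present in all cells, homozygotes die in part before this stage, and the single KO heart gives its genotype no spread. Values are the deposited log2 signals, already normalized, which ran from 4.58 to 15.59 over the 12 arrays. The labels give neither litter, nor slide, nor the strain origin of chromosome 1 in each embryo, and their part in the results was not tested.

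Calpain-2, the product of Capn2, is the large catalytic subunit of a calcium-activated cysteine protease that cuts cytoskeletal and adhesion proteins at chosen sites instead of degrading them. It pairs with a small regulatory subunit encoded by Capns1 and is held in check by calpastatin, the product of Cast. In cells it takes part in the turnover of adhesions during migration and in the remodelling of muscle. Zbtb18, also called RP58, encodes a zinc finger repressor of transcription that is known for its role in cortical neurons and, in muscle cells, for repressing Id genes. Tatdn3 encodes a member of the TatD family of deoxyribonucleases. Iars2 encodes the mitochondrial isoleucyl-tRNA synthetase, which loads isoleucine onto its tRNA for translation inside mitochondria.

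The 4 genes share a chromosome, and their start regions are shown because the genes varied together. Each line gives 250 bases before and 50 after a gene start, from RefSeq on build GRCm38.p6, and all 4 genes were found in that table. For Zbtb18 and Tatdn3, which have 5 and 2 starts there, the first listed is printed. Capitals mark every match, on either strand, to a motif, which was CATCTG (the core of the element that ZBTB18 binds) or the GC box GGGCGG or the CCAAT box or the TATA box TATAAA.
Capn2 (chr1:182517561-182517860, minus strand): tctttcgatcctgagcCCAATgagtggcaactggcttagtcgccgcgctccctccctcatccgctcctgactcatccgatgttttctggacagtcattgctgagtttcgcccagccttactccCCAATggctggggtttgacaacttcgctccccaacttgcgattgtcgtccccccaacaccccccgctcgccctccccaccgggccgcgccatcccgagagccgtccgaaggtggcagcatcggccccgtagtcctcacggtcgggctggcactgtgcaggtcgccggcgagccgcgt
Zbtb18 (chr1:177442101-177442400, plus strand): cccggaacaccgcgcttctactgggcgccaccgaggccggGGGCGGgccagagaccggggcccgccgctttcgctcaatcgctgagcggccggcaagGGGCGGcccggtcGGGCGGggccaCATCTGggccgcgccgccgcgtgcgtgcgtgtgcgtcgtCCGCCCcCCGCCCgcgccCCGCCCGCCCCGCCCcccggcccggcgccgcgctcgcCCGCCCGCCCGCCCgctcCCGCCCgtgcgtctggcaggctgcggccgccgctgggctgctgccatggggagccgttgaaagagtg
Tatdn3 (chr1:191062883-191063182, minus strand): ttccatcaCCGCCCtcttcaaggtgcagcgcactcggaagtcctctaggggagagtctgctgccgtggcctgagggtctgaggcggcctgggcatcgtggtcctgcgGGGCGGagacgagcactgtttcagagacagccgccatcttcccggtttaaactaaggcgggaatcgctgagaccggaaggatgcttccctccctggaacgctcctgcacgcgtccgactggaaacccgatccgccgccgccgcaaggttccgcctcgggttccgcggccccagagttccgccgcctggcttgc
Iars2 (chr1:185329352-185329651, minus strand): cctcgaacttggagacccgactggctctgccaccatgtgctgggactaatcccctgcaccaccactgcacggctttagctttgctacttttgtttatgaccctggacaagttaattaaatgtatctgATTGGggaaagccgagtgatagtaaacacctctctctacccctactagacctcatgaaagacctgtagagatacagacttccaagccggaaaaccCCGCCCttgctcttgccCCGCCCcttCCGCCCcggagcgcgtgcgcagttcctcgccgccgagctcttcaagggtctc
The core CATCTG was found once in the Zbtb18 start region and in none of the other 3, against 17.2% of all 32851 start regions in the table. GGGCGG had 12 matches, some of them overlapping, at Zbtb18, 2 at Tatdn3, 3 at Iars2 and 0 at Capn2 (35.7% of all regions hold it). CCAAT had 2 matches at Capn2 and 1 at Iars2 (37.4% of all regions), and TATAAA none in these 4 (13.6%). The share of G and C was 64.3% at Capn2, 81.7% at Zbtb18, 65.7% at Tatdn3 and 55% at Iars2, against a median of 52.7%. No motif of the 4 was thus present in all 4 printed start regions. Starts 2 to 5 of Zbtb18, not printed, differed from its first: GGGCGG had 0 matches, TATAAA 1 or 2 and CATCTG 1 at each. Their share of G and C was 38.3% to 43.7%. Probe sequences were not used here, so the place of each probe within its transcript was not analysed.

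Capn2 signal fell into 2 widely separated ranges at 2 of its 5 probes, and the same 3 hearts lay in the lower range at both. Probe ILMN_1219583 read 11, 10.03 and 10.92 in WT replicates 1 to 3. In MatKO replicates 1 to 4 it read 7.07, 6.82, 10.28 and 7.36. The PatKO hearts read 10.26, 10.16, 10.79 and 9.55, and the KO heart read 10.88. MatKO replicates 1, 2 and 4 were therefore low and the other 9 hearts, MatKO replicate 3 among them, were high, with nothing between 7.36 and 9.55. Probe ILMN_2683586 read 11.26, 10.46 and 11.01 in WT, 8.43, 8.35, 10.76 and 8.93 in MatKO, and 10.80, 10.45, 10.97 and 10.27 in PatKO hearts, with 11.33 in the KO heart. Its widest gap again lay above MatKO replicates 1, 2 and 4 and measured 1.34 on the log2 scale, against 2.19 at ILMN_1219583.

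The brightest Capn2 probe, ILMN_2620030, varied far less. It read 11.61, 11.25 and 11.35 in WT, 10.91, 11.08, 11.40 and 11.15 in MatKO, 11.51, 11.27, 11.30 and 11.19 in PatKO hearts and 11.50 in the KO heart. The same 3 MatKO hearts were its lowest, but only 0.05 below the next heart (PatKO replicate 4), and its whole range was 0.70 against 4.17 at ILMN_1219583. The platform annotation assigns these 3 probes to the same RefSeq transcript of Capn2. The dimmer probes ILMN_2584397 (6.81 to 7.68) and ILMN_1235077 (6.15 to 7.35), annotated to separate cDNA clones, did not set the 3 hearts apart. Probes of 1 gene thus differed in how much they varied, while 3 of the 5 placed the same hearts lowest.

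**Figure D1:**
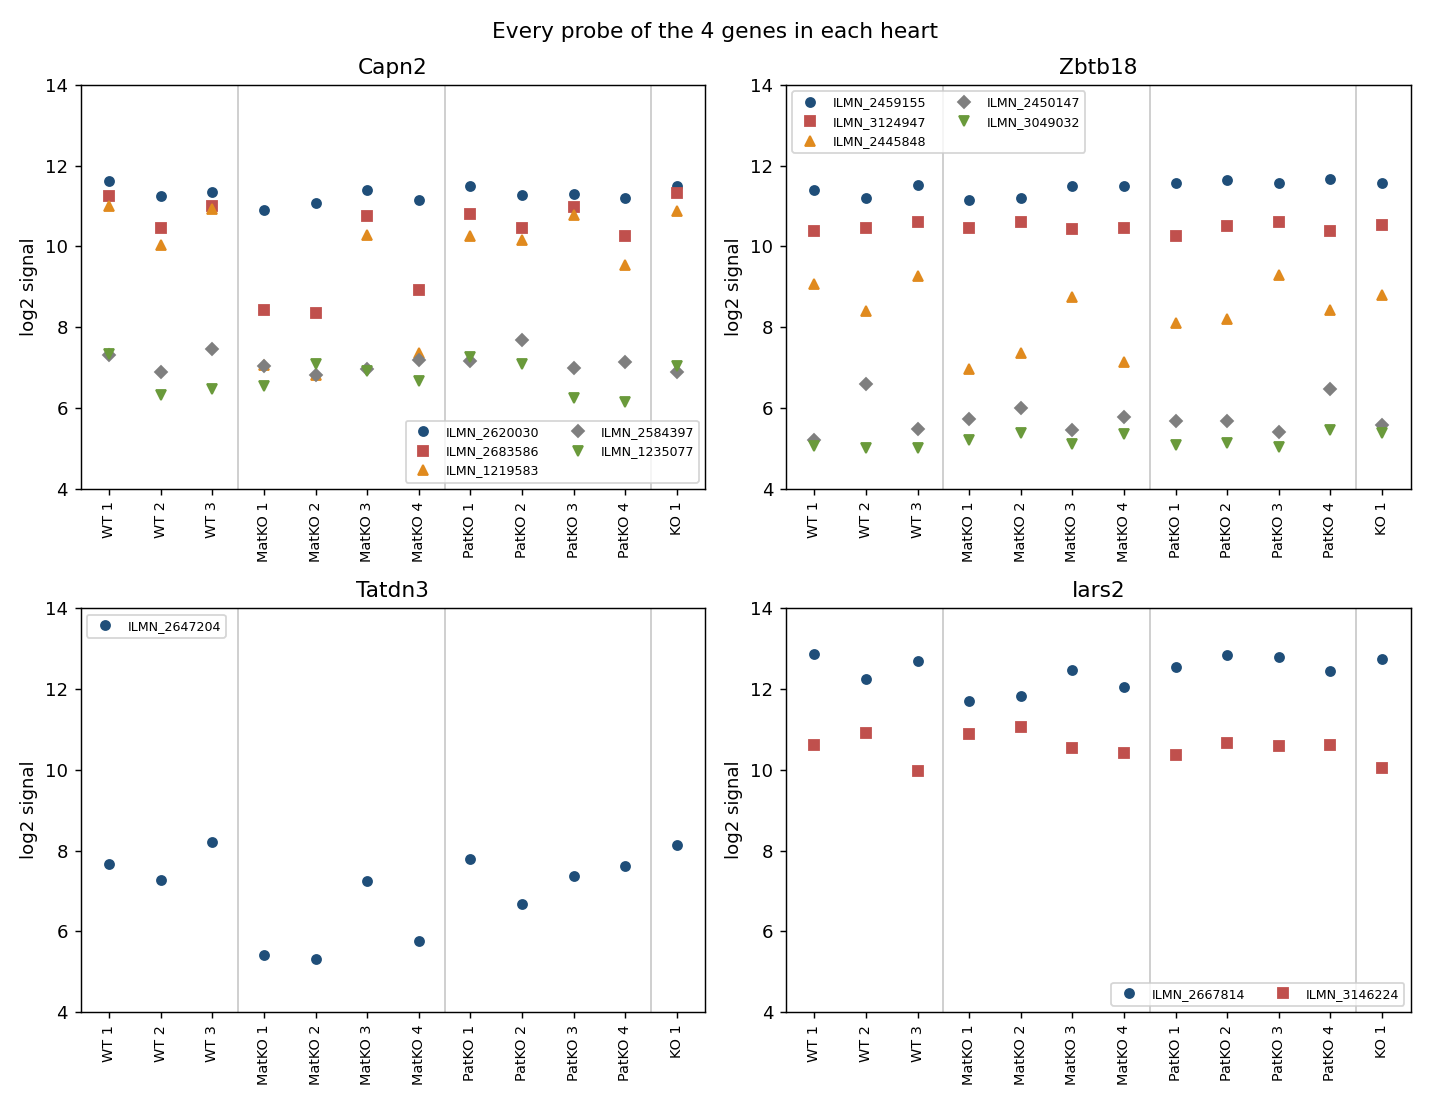
Log2 signal (vertical axis, 4 to 14 in each panel) of every probe of Capn2, Zbtb18, Tatdn3 and Iars2 in each of the 12 hearts (horizontal axis, grouped by genotype; 1 point per probe and heart). MatKO replicates 1, 2 and 4 sit low at Capn2 ILMN_1219583 and ILMN_2683586, Zbtb18 ILMN_2445848 and Tatdn3 ILMN_2647204, and less so at Iars2 ILMN_2667814, while the other probes of Zbtb18 and Iars2 and 2 of Capn2 do not place these 3 hearts lowest.

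Zbtb18 showed the same split at 1 of its 5 probes. Probe ILMN_2445848 read 9.07, 8.41 and 9.26 in WT, 6.97, 7.37, 8.74 and 7.15 in MatKO, 8.10, 8.21, 9.29 and 8.42 in PatKO hearts and 8.79 in the KO heart. MatKO replicates 1, 2 and 4 were again the 3 lowest hearts, with a gap of 0.73 to the next. Its brighter probes were nearly level: ILMN_2459155 ran from 11.15 to 11.67 and ILMN_3124947 from 10.27 to 10.61. Both of the remaining probes, ILMN_2450147 (5.20 to 6.59) and ILMN_3049032 (5.0 to 5.45), were dim. The annotation gives ILMN_2445848, ILMN_2459155 and ILMN_2450147 the same transcript, so the transcript named does not separate the probe that moved from those that did not.

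Tatdn3, with its single probe ILMN_2647204, read 7.67, 7.28 and 8.20 in WT, 5.41, 5.32, 7.25 and 5.77 in MatKO, 7.80, 6.68, 7.38 and 7.61 in PatKO hearts and 8.13 in the KO heart. The 3 low hearts were the same, and the gap to the next heart (PatKO replicate 2) was 0.91. At 5.32 to 5.77 they were close to the array medians of 5.61 to 5.62.

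Iars2 was bright and moved least of the 4. Probe ILMN_2667814 read 12.86, 12.24 and 12.68 in WT, 11.71, 11.83, 12.47 and 12.06 in MatKO, 12.55, 12.83, 12.80 and 12.45 in PatKO hearts and 12.74 in the KO heart. MatKO replicates 1, 2 and 4 were the lowest, 0.18 under WT replicate 2, although its widest gap (0.23) separated only MatKO replicates 1 and 2 from the rest. The other Iars2 probe, ILMN_3146224, annotated to the same transcript, ran the opposite way in part: its highest value, 11.05, was in MatKO replicate 2 and its lowest, 9.96, in WT replicate 3.

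In all, MatKO replicates 1, 2 and 4 lay below each of the other 9 hearts at 6 of the 13 probes, with at least 1 probe for each gene. Of all 45267 probes, 0.563% placed these 3 hearts below the rest. The members were chosen for this co-variation, so the comparison with that share is not evidence of it. Over the 12 hearts, the Pearson correlation with Capn2 ILMN_1219583 was 0.99 for Capn2 ILMN_2683586, 0.93 for Zbtb18 ILMN_2445848, 0.93 for Tatdn3 and 0.93 for Iars2 ILMN_2667814 (Spearman's rho 0.97, 0.86, 0.81 and 0.85). Such values mostly restate the separation of 3 hearts from 9, all on arrays that share 1 normalization. Among the 9 other hearts alone, the correlation was 0.94 for the second Capn2 probe, 0.75 for Zbtb18, 0.47 for Tatdn3 and 0.68 for Iars2. Between probes of different genes it ran from 0.82 to 0.95 over 12 hearts (9 pairs of the 5 probes) and from 0.05, for Tatdn3 with Iars2, to 0.75 over the 9. The paired Capn2 probes therefore followed each other within the higher set as well, and the different genes did so less closely. The brightest Capn2 probe correlated with ILMN_1219583 at 0.84 over 12 hearts and at 0.66 over the 9.

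Between genotypes, the low MatKO hearts set the differences. Capn2 ILMN_1219583 averaged 10.65 ± 0.54 (SD, n = 3) in WT, 7.88 ± 1.61 (SD, n = 4) in MatKO and 10.19 ± 0.51 (SD, n = 4) in PatKO hearts. The MatKO hearts were the most spread, from 6.82 to 10.28. The difference of PatKO minus MatKO hearts was 2.31 (standard error 0.65 from limma). For ILMN_2683586 the difference of PatKO minus MatKO was 1.51 (standard error 0.46) and for ILMN_2620030 it was 0.19 (0.12). Tatdn3 differed by 1.43 (0.41), Zbtb18 ILMN_2445848 by 0.95 (0.39) and Iars2 ILMN_2667814 by 0.64 (0.18). The remaining 7 probes differed by -0.16 to 0.28. At the 5 leading probes MatKO replicate 3 lay within the range of the PatKO hearts, so MatKO and PatKO hearts overlapped. At 1 probe they did not: Zbtb18 ILMN_2459155 read 11.15 to 11.49 in MatKO and 11.56 to 11.67 in PatKO hearts, a difference of 0.28 (0.11), and 2.15% of all probes had PatKO hearts above MatKO hearts with no overlap. With MatKO replicate 3 as the only MatKO heart, a setting chosen after the values were seen, PatKO minus MatKO became -0.09 for Capn2 ILMN_1219583, -0.14 for ILMN_2683586, -0.23 for Zbtb18 ILMN_2445848, 0.12 for Tatdn3 and 0.19 for Iars2 ILMN_2667814. The hearts left out were the low ones, so small differences follow from that choice.

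PatKO hearts were close to WT hearts at the same probes. PatKO minus WT was -0.46 (standard error 0.70) for Capn2 ILMN_1219583, -0.29 (0.49) for ILMN_2683586, -0.41 (0.42) for Zbtb18 ILMN_2445848, -0.35 (0.44) for Tatdn3 and 0.07 (0.20) for Iars2 ILMN_2667814. MatKO minus WT was -2.77 (0.70), -1.79 (0.49), -1.36 (0.42), -1.78 (0.44) and -0.58 (0.20) in the same order. The 2 comparisons share the WT hearts. In the KO heart, which lacks Ddc from both parents, the 5 probes differed from the WT means by 0.23, 0.43, -0.12, 0.41 and 0.15, each less than its standard error. The PatKO hearts and the KO heart, which carry the paternal deletion, thus differed from WT hearts by less than 1 standard error at each of the 5 probes, and the low hearts were 3 of the 4 MatKO hearts.

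**Figure D2:**
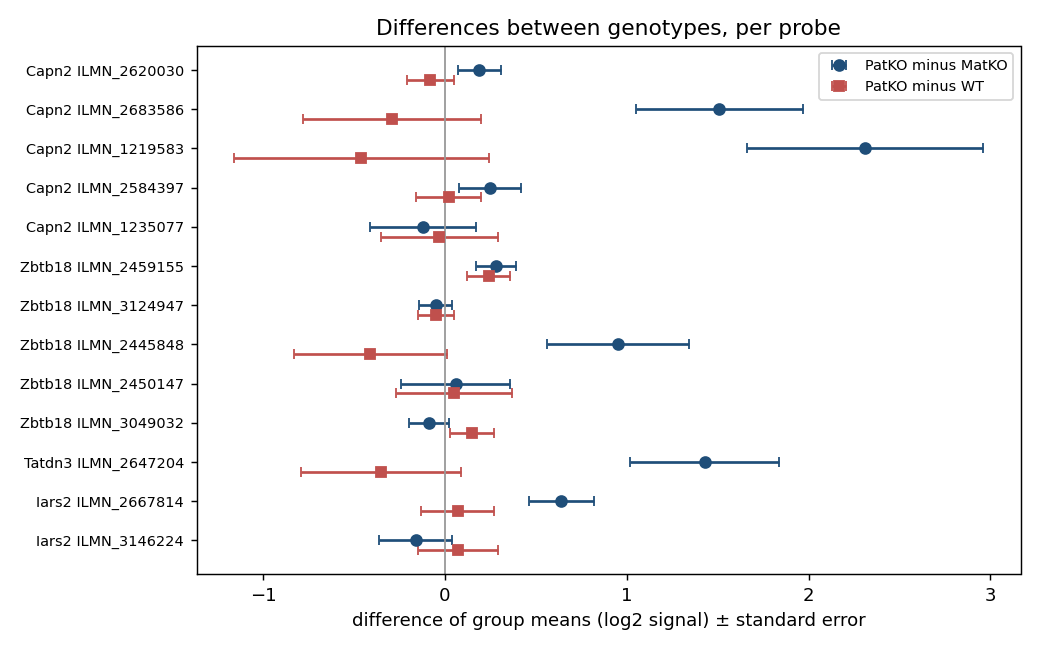
Difference of group means in log2 signal (horizontal axis) for each of the 13 probes (vertical axis), PatKO minus MatKO as circles and PatKO minus WT as squares, with bars for the standard error from limma. The 5 leading probes lie at 0.64 to 2.31 for PatKO minus MatKO and at -0.46 to 0.07 for PatKO minus WT.

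Along chromosome 1, in the gene order of RefSeq, Zbtb18 comes first of the 4, as number 948 of 1061 measured genes, followed by Capn2 (989), Iars2 (1007) and Tatdn3 (1029). Between them lie 40, 17 and 21 other measured genes. The neighbours were taken as all 78 other measured genes from Zbtb18 to Tatdn3 and 25 beyond each end, 128 genes with 243 probes. At 4 of the 243 probes (1.65%, against 0.563% of all probes) MatKO replicates 1, 2 and 4 lay below the other 9 hearts: 2 of Efcab2 and 1 each of Itpkb and Eprs. At 0 of the 243 probes did the widest gap set these 3 hearts apart. An absolute correlation of 0.8 or more with Capn2 ILMN_1219583 was reached by 5 neighbour probes (2.06%), against 0.298% of all probes, members included. Eprs, the cytosolic glutamyl-prolyl-tRNA synthetase, was the only positive one (0.81), and Hmga2-ps1 (-0.86), Taf1a (-0.81), Lyplal1 (-0.82) and Rd3 (-0.83) were negative. With the brightest Capn2 probe in its place, Ptpn14 (0.84), Ints7 (0.80), Nvl (-0.84) and Utp25 (-0.86) reached 0.8 (1.65%, against 0.453% of all probes), none of them shared with the first 5.

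With 1 mean per genotype fitted over the 12 hearts, limma called 0 of the 243 neighbour probes in PatKO against MatKO hearts at an adjusted p of 0.05 (21 at an unadjusted p under 0.05), where 0.00663% of all probes, the 3 of Ddc, were called. By the study's looser rule, an unadjusted p under 0.01 with a log2 difference over 0.4, 4 neighbour probes passed (1.65%), against 1.39% of all probes. PatKO minus MatKO was 0.62 for Eprs (standard error 0.17), -0.54 for Sertad4 (0.12), -0.51 for Susd4 (0.14) and -0.45 for Rd3 (0.13), with adjusted p-values of 0.485, 0.4, 0.485 and 0.487. In MatKO against WT hearts 3 neighbour probes passed the looser rule (1.23%), while 0.702% of all probes did, and 0 were called. At an unadjusted p under 0.05 there were 20 of the 243 neighbour probes and 2211 of all 45267. By the looser rule the neighbours were thus near the background in PatKO against MatKO hearts. In MatKO against WT hearts they were above it, on 3 probes. Their median differences were 0.02 and -0.01.

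**Figure D3:**
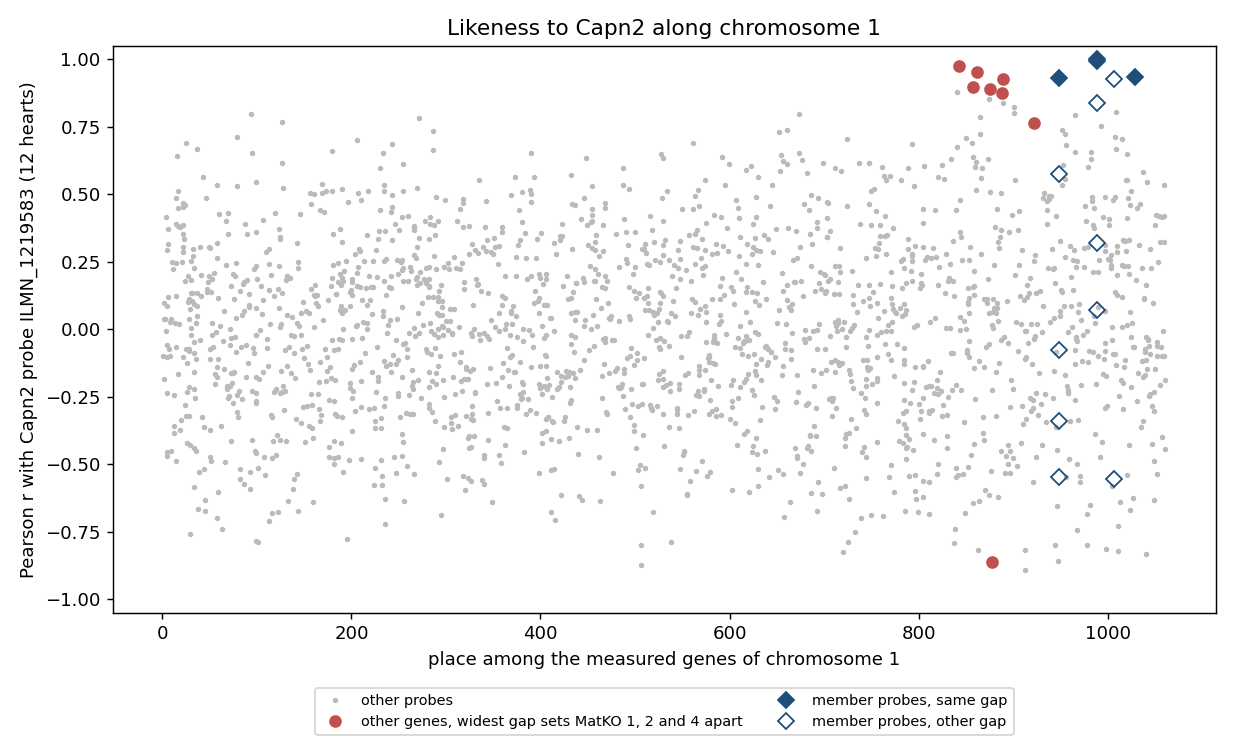
Pearson correlation over 12 hearts with Capn2 probe ILMN_1219583 (vertical axis) for every measured probe of chromosome 1, placed by the order of its gene among the 1061 measured genes (horizontal axis). Diamonds are the 13 member probes (filled where the widest gap sets MatKO replicates 1, 2 and 4 apart), large circles the 8 other probes with that gap, all between places 843 and 922, and small points the remaining probes.

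A second stretch of the chromosome, ahead of Zbtb18, held genes that set the same 3 hearts apart; it was noticed after the values had been seen and is described without a test. The widest gap of a probe set MatKO replicates 1, 2 and 4 apart at 8 of the 2062 chromosome 1 probes outside the 4 genes (0.388%), against 30 of 32718 probes on other chromosomes (0.0917%). All 8 belonged to genes from place 843 to 922, Uap1, Pcp4l1, Fcer1g, F11r, Cd244a, Copa, Pex19 and Ifi205. That 0 of the 1656 probes ahead of Uap1 had that gap follows from taking Uap1, the first of these genes, as the boundary. The 3 hearts were low at 7 of the 8 and high at Cd244a (5.09, 5.04 and 5.16, against 4.94 or less), and on other chromosomes they were low at 13 probes and high at 17. Over all chromosomes, 9 probes had it with a width of 0.5 or more, 4 of them of Capn2, Zbtb18 and Tatdn3. The other 5 were those of Fcer1g, Uap1, Tob2, Myl4 and a probe without a listed gene, ILMN_1246768. At 8 of the 9 the 3 hearts were low, and at Myl4 ILMN_1252533 they were high (7.67, 7.83 and 7.46, against 6.96 or less in the others). The brighter Myl4 probe ILMN_2610744 ran only from 15.18 to 15.39 and did not have that gap. Tob2 had it at ILMN_2582706 and not at its other probes, whose correlations with Capn2 ILMN_1219583 were -0.3 to 0.39. With gaps of any width, 48 probes set these 3 hearts apart, members included, which ranked 20 among the 220 possible sets of 3 hearts, where the median was 19 and the most 132. At a width of 0.5 or more its 9 probes ranked 1, the most for any set, with the members, chosen for this co-variation, counted. By the measure used for the neighbours, 15 of the 406 chromosome 1 probes from Uap1 on, members left out, had these 3 hearts below the other 9. The 15 include the 4 neighbour probes, and the share of all probes was 0.563%. Usf1 (place 874) read 5.74, 6.54 and 6.89 in the 3 hearts and 7.10 or more in the others. Both probes of Dusp23 (place 901) had them lowest as well. Ahead of Uap1, Hsd17b7 (place 841) read 11.09, 11.19 and 10.71, against 11.46 or more. Aim2 (place 913) went the other way at ILMN_3009792, with 7.61, 7.61 and 7.02 against 6.67 or less. At Aim2 ILMN_1223868 MatKO replicate 4 (7.39) was not above PatKO replicate 1 (7.42). Over all of chromosome 1, members left out, 22 probes reached an absolute correlation of 0.8 with Capn2 ILMN_1219583, 12 positive and 10 negative. Among all probes, 303 had the 3 hearts above the other 9 and 255 below.

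Fcer1g, which encodes the signalling chain shared by Fc receptors of myeloid cells, had the widest gap of all these, 3.22. Its probe read 8.80, 9.21 and 9.37 in WT, 4.87, 4.80, 9.70 and 4.89 in MatKO, 8.11, 9.64, 10.19 and 8.52 in PatKO hearts and 9.66 in the KO heart. In the 3 low hearts it was near the lowest value of the arrays. Other genes of myeloid cells were chosen after these values were seen. In MatKO replicates 1, 2 and 4 the adaptor Tyrobp read 7.32, 7.70 and 7.39, within the 6.83 to 8.67 of the other hearts. The complement gene C1qa read 7.53, 7.91 and 7.40, within 6.68 to 8.16. Values of these 3 hearts also overlapped those of the others at the probes of Csf1r, Fcgr3 and Lyz2. Whether the share of myeloid cells differed was not tested. Uap1, an enzyme that makes the sugar donor UDP-N-acetylglucosamine, read 11.42, 10.49 and 11.45 in WT, 9.24, 9.01, 11.26 and 9.31 in MatKO, 11.36, 10.90, 11 and 10.57 in PatKO hearts and 11.48 in the KO heart. The gap was 1.17, and Uap1 followed Capn2 ILMN_1219583 at a correlation of 0.98 over 12 hearts and 0.78 over the 9 others.

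The remaining genes of that stretch with the same widest gap moved less than Fcer1g and Uap1. Pcp4l1 probe ILMN_1254622 read 11.34, 11.01 and 11.28 in the 3 hearts and 11.63 or more in the others, and F11r, a junction protein of endothelium and platelets, 8.87, 8.99 and 8.86 against 9.27 or more. Pex19, needed to insert peroxisome membrane proteins, read 12.54, 12.59 and 12.68 against 12.90 or more at ILMN_1239087. At its other probe, ILMN_2970834, MatKO replicates 1 and 2 were low (9.08 and 9.22) but replicate 4 (10.35) was not below PatKO replicate 4 (10.18). Copa, a coat protein of transport vesicles, read 12.30, 12.23 and 12.38 against 12.46 or more, a gap of 0.08. Cd244a and Ifi205 lay at 4.70 to 5.16, near the lowest value of the arrays. As with Capn2 and Zbtb18, the split was thus seen at some probes of a gene and not at others: 8 of the 14 probes of these 8 genes had it.

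**Figure D4:**
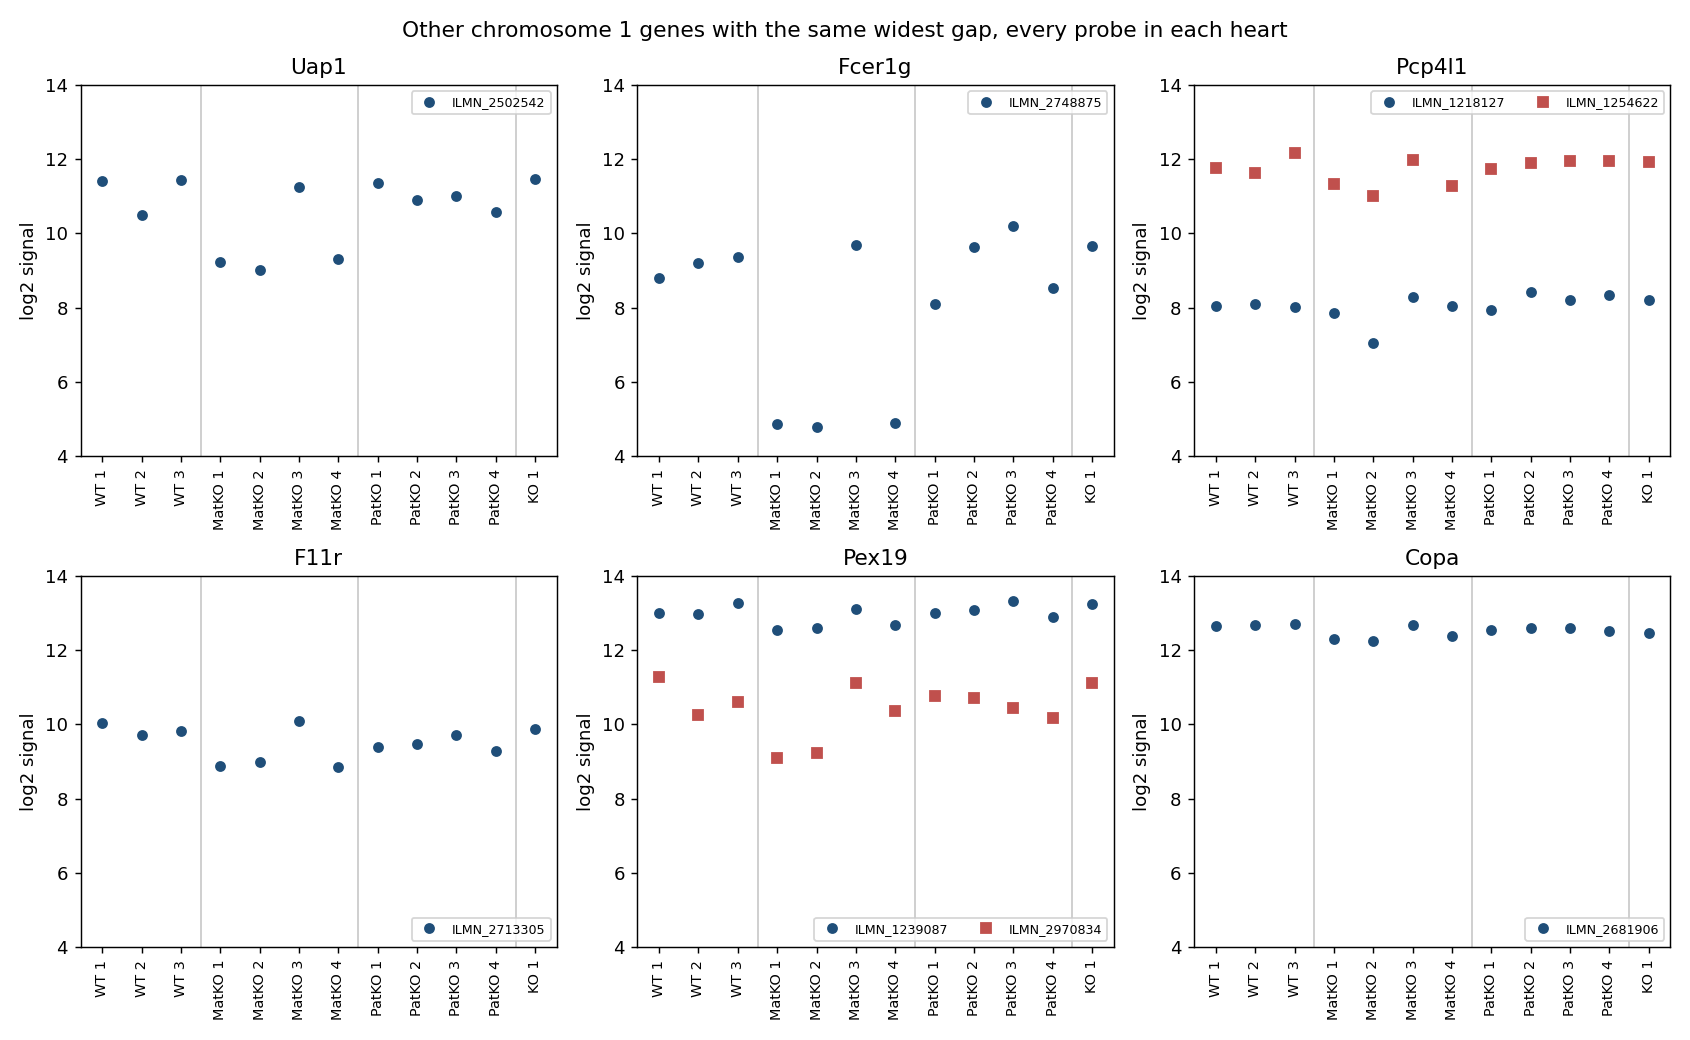
Log2 signal (vertical axis, 4 to 14) of every probe of Uap1, Fcer1g, Pcp4l1, F11r, Pex19 and Copa in each of the 12 hearts (horizontal axis, grouped by genotype; 1 point per probe and heart). Fcer1g reads 4.80 to 4.89 and Uap1 9.01 to 9.31 in MatKO replicates 1, 2 and 4, below every other heart, Copa differs by at most 0.46 between hearts, and the second probe of Pcp4l1 is low in MatKO replicate 2 alone.

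Among all named probes with a mean of 7 or more outside the 4 genes, the 10 most like Capn2 ILMN_1219583 by absolute correlation over 12 hearts were Uap1 (0.98), Fcer1g (0.95), Niban2 (-0.94), Pex19 (0.93), Wapl (0.90), Pcp4l1 (0.90), F11r (0.89), Hsd17b7 (0.88), 5430416N02Rik (-0.88) and Copa (0.87). Of these, 7 lie on chromosome 1. Wapl was listed by its probe ILMN_2743756, and its other probes correlated at 0.1, -0.02 and -0.32. By likeness to the brightest Capn2 probe, ILMN_2620030, the 10 were Fbrs (-0.93), Pex19 (0.91), Pola2 (-0.91), Hnrnpll (0.91), Adck5 (-0.90), Lmnb2 (-0.90), Appl1 (0.88), Sdhc (-0.88), Abi1 (0.88) and Uap1 (0.88), 3 of them on chromosome 1. Uap1 and Pex19 were on both lists, Pex19 by a different probe on each. The choice of Capn2 probe thus changed most of the genes found to be like it.

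Other genes of the calpain system, most of them other calpains and not partners of calpain-2, gave no call. Of 15 other genes of the calpain system 14 were measured, with 24 probes, and limma called 0 in PatKO against MatKO hearts (1 at an unadjusted p under 0.05). The 1 probe past the looser rule (4.17%, against 1.39% of all probes) was that of Capn6, a calpain without protease activity. It differed by -0.43 (standard error 0.11, adjusted p = 0.448). The other probes with the smallest p were those of Capn13 (-0.20), Cast (0.32) and Capn10 (0.19). None of the 24 reached an absolute correlation of 0.8 with either Capn2 probe. For substrates of calpains in the cytoskeleton and adhesions, 9 probes of 5 genes gave 0 calls (0 also at an unadjusted p under 0.05) and a median difference of 0.01.

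Relatives of the other 3 genes gave no call either. Among aminoacyl-tRNA synthetases, 38 probes of 18 genes gave 0 calls, 2 probes had an unadjusted p under 0.05 (Hars2, 0.35, and Aars2, 0.33), and 0 passed the looser rule. The TatD genes Tatdn1 and Tatdn2, with 3 probes, differed by -0.05 to 0.22. All 7 probes of the Id genes had a negative difference of PatKO minus MatKO, with a median of -0.40, although limma called 0 of them (3 at an unadjusted p under 0.05). Over all 45267 probes 23131 had a negative difference and 3225 an unadjusted p under 0.05. Against WT hearts, the 7 Id probes were mixed in MatKO (3 positive and 4 negative differences, median -0.03) and all negative in PatKO hearts (median -0.27). Id2, which encodes an inhibitor of basic helix-loop-helix factors, differed by -0.72 (standard error 0.23, adjusted p = 0.522) and -0.53 (0.20, adjusted p = 0.595) at its 2 probes. Id2 is also among the genes that the study listed from these samples, so it is not independent evidence of a direction. Its correlation with Capn2 ILMN_1219583 was only -0.18 and -0.16.

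Ddc matched the labels of the paternal deletion. It was called lower in PatKO than in MatKO hearts at each of its 3 probes, and ILMN_1260450 read 13.42 to 13.99 in MatKO and 10.22 to 10.44 in PatKO hearts. MatKO minus WT was -0.26, -0.16 and -0.65 at the 3 probes, with 0 called. Ddc therefore cannot tell MatKO from WT hearts and gives no check of the MatKO labels. The mean over the brightest probes of 7 cardiomyocyte genes was 14.44 to 14.60 in all 12 hearts, with Myl2 (mean 15.46) and Nppa (15.36) near the highest value on the arrays. Other probes of these genes varied more: of 15 probes, limma called 0 in PatKO against MatKO hearts, and 0 passed the looser rule. An unadjusted p under 0.05 was reached by 5 of the 15, against 3225 of all 45267 probes. Among the 5 were Myh6 ILMN_2640008 (0.95) and Myl7 (-0.58). Ryr2 ILMN_1244913 had MatKO replicates 1, 2 and 4 lowest, with a gap of 0.17. Ranges of other markers in MatKO replicates 1, 2 and 4 overlapped those of the other 9 hearts. The female transcript Xist read 12.80 to 13.52 in the 3 hearts and 12.57 to 13.13 in 6 others, and was low (4.75 to 5.99) in MatKO replicate 3 and PatKO replicates 1 and 3. The mean of 6 liver genes was 4.96 to 7.89 in the 3 hearts and 5.37 to 10.82 in the others, that of 4 neutrophil genes 6.33 to 7.48 and 5.98 to 9.77, and that of 3 embryonic globin genes 11.77 to 12.02 and 9.96 to 13.13. The first principal component, with 27.1% of the variance, was positive in MatKO replicates 1 and 2 and negative in replicate 4 (-17.6). Between genotypes, the median difference of PatKO minus MatKO was -0.79 for 7 probes of epicardium and -1.19 for 5 of embryonic red cells. It was 1.36 for 4 probes of neutrophils and 2.12 for 10 of liver products, with 0 of all these called. By the looser rule 3 epicardium probes (42.9%) and 1 of embryonic red cells (20%) passed, against 1.39% of all probes. For neutrophils and liver products 0 passed. The mean of the liver genes overlapped between the genotypes: it was 5.39 in PatKO replicate 3, and 8.59 and 7.89 in MatKO replicates 3 and 4. The part of these markers in the differences of Capn2, Zbtb18, Tatdn3 and Iars2 was not tested. In whole hearts, fewer cells of a type and less RNA per cell cannot be told apart.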

How the data were processed

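Expression was measured in hearts of 3 WT, 4 MatKO, 4 PatKO and 1 KO embryos, mapped to genotype by their sample titles. The deposited log2 values were made by the authors from GenomeStudio signals, with background correction and quantile normalization by neqc. No source used here gives a version or a filter of probes, and the methods name Affymetrix arrays where labels and probe names are those of Illumina. The 24 columns of a scanner table were left out because their names fit no heart, so slides and detection were not assessed. Gene names came from the platform annotation (34875 probes with 1 symbol, 18 with several, 10374 unnamed). RefSeq (GRCm38.p6) gave current symbols, gene order and start sequences.

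A linear model with 1 mean per genotype was fitted to every probe over the 12 arrays (limma 3.58.1, R 4.3.3), with Benjamini-Hochberg adjustment across the 45267 probes. The fit was tested on simulated data. Likeness to Capn2 was Pearson's r, planned with the brightest Capn2 probe, and the widest gap between ordered values was recorded for each probe. Named genes are the members, list genes past a threshold, with an absolute r of 0.8 or among the 4 smallest p, and the 10 most like Capn2. Members and lists were chosen with earlier results of these data known. The number of arrays limits the precision. The labels do not say whether the hearts came from separate litters, so p-values measure only the spread between these samples. Alternatives were a block for replicate number, weighted arrays, a robust trended variance, only the arrays compared, a filter on dim probes (mean under 7), each heart left out, and other measures of likeness.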

Additional observations from a re-analysis of the deposited data

Results flagged for a closer look

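Among the 13 member probes and 5 others with a wide gap, 36 groups of 4 hearts were examined for a heart far from the rest of its group, and 6 were found. Chance gives about 1 in 20 groups, but these probes were chosen for the split of the MatKO hearts, so the number found cannot be read against that share. The measure is the gap between the extreme heart and its neighbour over the range of the group, set against Dixon's critical value for 4 samples. MatKO replicate 3 stood above the other MatKO hearts at Capn2 ILMN_1219583 (0.845), Uap1 (0.867), Fcer1g (0.983) and ILMN_1246768, a probe without a listed gene (0.877). MatKO replicate 2 stood apart at Zbtb18 ILMN_3124947 (0.855), where it read 10.61. PatKO replicate 1 stood apart at Myl4 ILMN_1252533 (0.855), where it read 6.96.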

How the results depend on the processing

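PatKO minus MatKO kept its sign with each heart left out at the 5 leading probes: 1.96 to 3.11 for Capn2 ILMN_1219583, 1.25 to 2.05 for ILMN_2683586, 0.69 to 1.34 for Zbtb18 ILMN_2445848, 1.22 to 1.87 for Tatdn3 and 0.54 to 0.79 for Iars2 ILMN_2667814. With MatKO replicate 3 as the only MatKO heart, a setting chosen after the values were seen, the sign turned at 3 of the 5: the values were -0.09, -0.14, -0.23, 0.12 and 0.19 in the same order, and -0.08 for Capn2 ILMN_2620030, 0.13 for Zbtb18 ILMN_2459155 and 0.07 for Zbtb18 ILMN_3049032. That setting leaves out the low hearts, so small differences follow from the choice itself. Calls over all probes numbered 3 to 7 with each heart left out (7 without MatKO replicate 3 or PatKO replicate 1), and probes past the looser rule 627, or 366 without dim probes, where fewer were tested. Neighbour probes past it numbered 4, 2 with a trended and robust variance and 1 to 8 with each heart left out (8 without PatKO replicate 1, 2 without PatKO replicate 2, 1 without PatKO replicate 3), calpain probes 0 to 2 (0 without MatKO replicate 2 or PatKO replicate 2, 2 without MatKO replicate 3) and synthetase probes 0 to 1 (1 without PatKO replicate 1). Neighbour probes with an absolute r of 0.8 to the brightest Capn2 probe numbered 4, and 2 to 8 with each heart left out (2 without WT replicate 1, 8 without WT replicate 2, 7 without WT replicate 3 or PatKO replicate 3). They were 9 by deviations from genotype means, 0 with Capn2 probe ILMN_2584397 and, both chosen after seeing the data, 15 over the 9 other hearts and 31 over all of chromosome 1; the cause was not tested. Deviations of hearts of the same replicate number correlated from -0.35 to 0.54 over 10 pairs, 2 of them over 0.1. Such values cannot settle whether equal numbers share a litter or slide, which the labels do not give. With a replicate block, the difference was 2.31 for Capn2 ILMN_1219583 and calls over all probes numbered 4, and it changed no call of the neighbours or lists. The normalization planned from the scanner table was not run.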
